A study of Macaca fascicularis with 6 samples.

Results

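Neutrophil-attracting chemokines and the G-CSF axis were examined through 7 genes, namely CXCL8, CXCL3 and CXCL5 among the ligands, CXCR1 among their receptors, and CSF3, its receptor CSF3R and CSF2. The members were taken by symbol from the gene lists of the libraries. A row was found for 6 of the 7, among 28623 genes in all, and CXCL5 is not analysed here. The study compared lung cells of a monkey model of asthma with those of control monkeys. Libraries came from 6 male cynomolgus monkeys (Macaca fascicularis) aged 3 to 5 years, with 1 library per monkey. The 3 monkeys of the asthma group (replicates 8, 10 and 11) were sensitized under the skin with A. suum, a roundworm allergen, at 1 mg/mL and challenged through the nose at 10 mg/mL, and the 3 control monkeys (replicates 1, 2 and 3) received saline. All lungs were taken in week 11 and dissociated with the same enzymes before the cells were captured.

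CXCL8, CXCL3 and CXCL5 belong to the CXC chemokines that carry an ELR motif and attract neutrophils by binding CXCR2, CXCR1 or both on them, depending on the ligand. Epithelial cells, monocytes and macrophages release these ligands in response to bacterial products, IL-1, TNF and IL-17. G-CSF, encoded by CSF3, drives the formation and release of neutrophils through CSF3R, while GM-CSF, encoded by CSF2, acts on neutrophils, monocytes and alveolar macrophages, and type 2 alveolar epithelial cells are a known source of it in the lung.

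The libraries held 40556102, 33210436 and 32240293 unique molecular identifiers (UMIs, 1 per captured RNA molecule) in the control group, and 41184329, 41489879 and 29014556 in the asthma group. Values are given in the order of the replicates throughout, 1, 2 and 3 for the controls and 8, 10 and 11 for asthma. Of 35133 barcodes, 24235 passed the filters on genes and on mitochondrial UMIs, with medians of 3835 to 5048.5 UMIs per cell. Any pair of libraries shared 1 to 11 barcodes among these cells. Libraries stood apart in several ways that bear on the members. Control replicate 2 held red cell RNA, with 452 CPM of HBB against at most 3.66 CPM in the others (CPM, UMIs per 1000000 UMIs of the cells summed). Monocyte-like cells of asthma replicate 11 lay mostly in a sub-cluster of their own (347 of its 358 cells), led by OLFM1, THBS1 and RHOU. A macrophage-like sub-cluster led by FER1L6 and EREG came from control replicate 1 (510 of 534 cells), and another led by IDO1 and CXCL11 mostly from asthma replicate 10 (480 of 869 cells).

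Both receptors were highest in 1632 cells of a cluster whose leading genes included CSF3R, RFLNB, CXCR1 and SOD2. The 7 members were kept out of the genes used for clustering. Of the marker lists, that for granulocytes scored highest in this cluster. It received no cell type name, since its cells had a median of 1004 UMIs and none of those markers was among its 10 leading genes, and it is called the RFLNB cluster here, after a leading gene that is not a member. S100A9 and S100A8, a calcium-binding pair abundant in neutrophils and monocytes, were among the 3 highest genes there of 24 measured genes of a neutrophil list. No row carried the symbol CXCR2, so the second receptor of these chemokines is not analysed here. The cluster's share of cells was 3.80%, 11.7% and 2.41% in the controls and 6.5%, 11.1% and 5.32% in the asthma libraries. The widest 95% Wilson interval of these shares, for control replicate 2, ran from 10.6% to 12.8%. The groups overlapped, with a mean difference of 1.69 percentage points and a two-sided exact permutation p of 0.6, where 3 libraries against 3 allow no p below 0.1. Sub-clusters of the RFLNB cluster followed libraries as well, 471 of 720 cells of one coming from asthma replicate 10, 318 of 334 of another from control replicate 2, 209 of 304 from asthma replicate 8 and 182 of 274 from asthma replicate 11.

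CXCL8 (ENSMFAG00000001622), which encodes interleukin-8, had 46103 UMIs in 4630 cells, with up to 229 in a single cell. Its level was highest in the RFLNB cluster, at 3965, 1933 and 4167 CPM in the controls and 2596, 2255 and 2995 CPM in asthma. Monocyte-like cells came next, at 1619, 499.7 and 881 CPM in the controls and 213, 624 and 187 CPM in asthma. Every library of the RFLNB cluster was above every library of the monocyte-like cells, whereas from the monocyte-like cells down each class overlapped the next one in the order. Macrophage-like cells held 663, 303 and 359 CPM in the controls and 184, 549.5 and 190.5 CPM in asthma. These cells supplied 34.7% to 75.0% of all CXCL8 UMIs of a library, and the RFLNB cluster 3.95% to 23.4%. Lymphocytes were at the bottom, with means of 9.38 CPM in B-like cells and 8.75 CPM in T and NK-like cells.

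**Figure D1:**
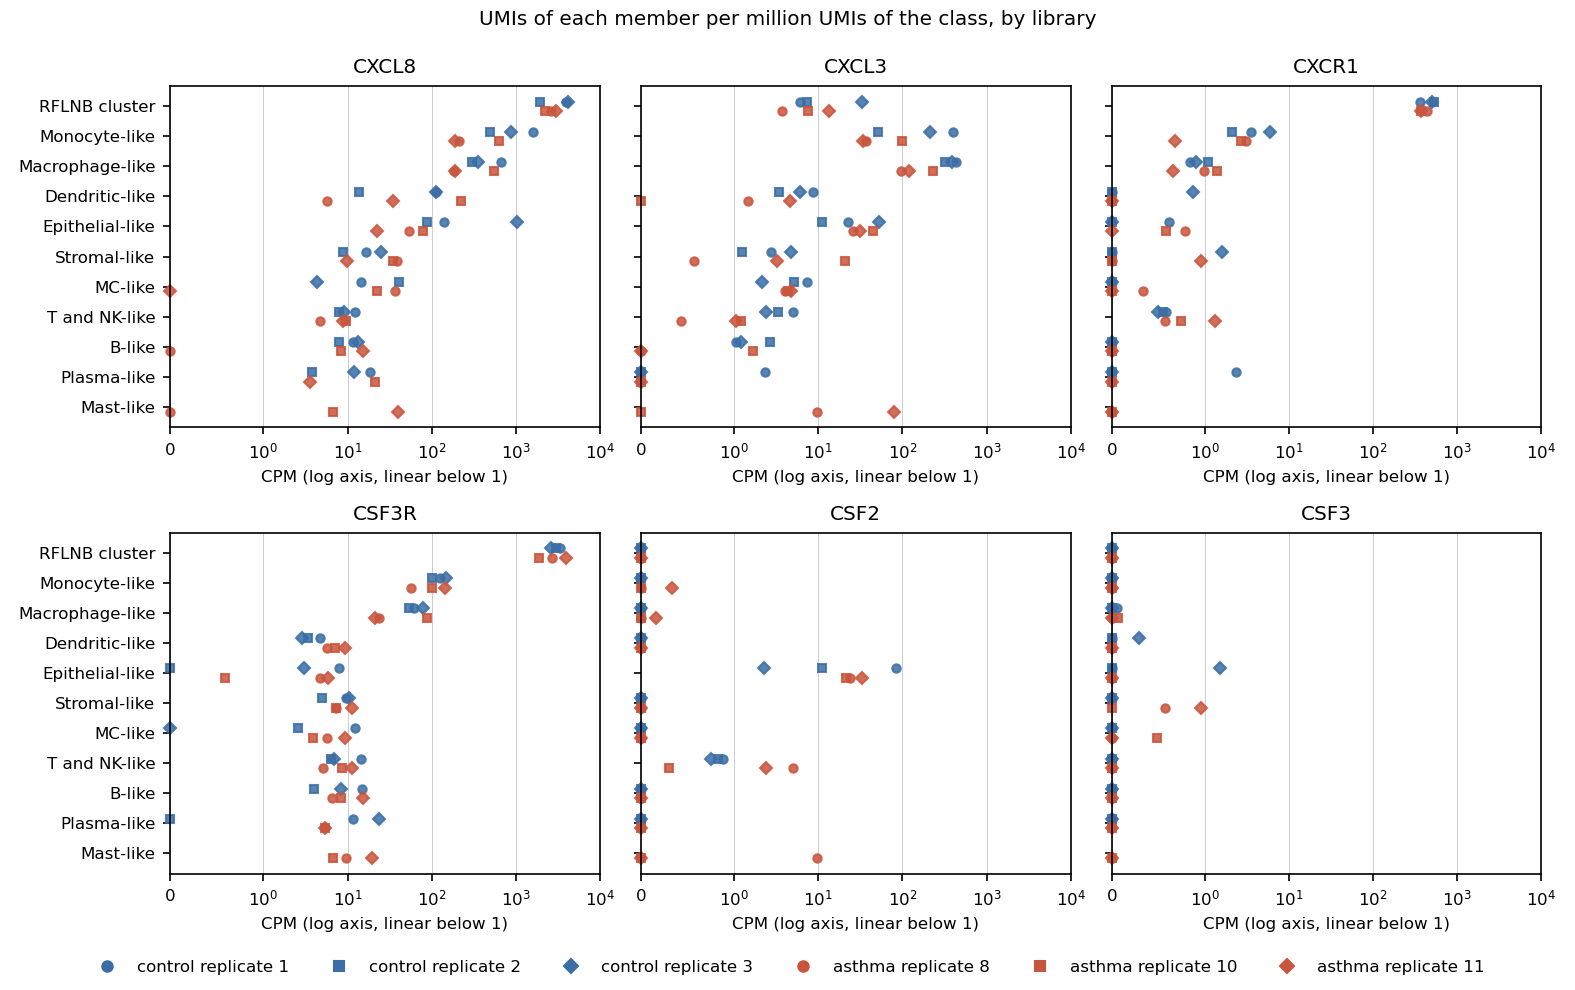
Level of each of the 6 measured genes in CPM (log axis, linear below 1) in each cell class, 1 point per library, with controls in blue and asthma in red. CXCL8, CXCR1 and CSF3R peak in the RFLNB cluster, CXCL3 in macrophage-like and monocyte-like cells and CSF2 in epithelial-like cells, and CSF3 is near 0 in every class.

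Shares of cells with a CXCL8 UMI were compared after each cell was thinned to 1000 UMIs, because a deeper cell shows a gene more often. That depth was reached by 74, 243 and 26 RFLNB cluster cells in the controls and by 122, 258 and 109 in asthma. Among them the shares were 64.2%, 45.1% and 72.1% in the controls and 45.7%, 55.0% and 63.5% in asthma. The groups overlapped, with a difference of -5.71 percentage points (exact permutation p = 0.6), or 0.106 without control replicate 3. Without thinning the 6 shares ran from 43.5% to 60.0% at a median of 943 to 1073 UMIs per cell. T and NK-like cells, in which a CXCL8 UMI can come from free RNA, showed 0.444% to 1.30% after thinning and B-like cells at most 1.40%, and without thinning 1.68% to 4.37% and at most 6.67%, at medians of 3659.5 and 4199.5 UMIs per cell. Monocyte-like cells (11.3% to 47.5%) and macrophage-like cells (11.2% to 34.3%) were far above this background in every library. CXCL8 was unevenly spread, the 10% of macrophage-like cells with the most UMIs holding 46.5% to 74.6% of those of their library.

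CXCL3 (ENSMFAG00000044905), a chemokine of the same ELR group, had 21418 UMIs in 2656 cells and a different order of classes. Macrophage-like cells led, with 434, 320 and 388 CPM in the controls and 97.1, 234 and 119 CPM in asthma, and supplied 76.3% to 89.2% of each library's CXCL3. Monocyte-like cells held 398, 51.2 and 213 CPM in the controls and 36.7, 97.5 and 34.4 CPM in asthma. The RFLNB cluster, where CXCL8 peaked, had only 15 CXCL3 UMIs over all 6 libraries. For each 100 CXCL8 UMIs it held 0.142 to 0.794 CXCL3 UMIs, against 10.2 to 24.6 in monocyte-like cells and 42.5 to 108 in macrophage-like cells. In macrophage-like cells the 3 asthma libraries (42.5 to 62.7) were below the controls (65.5 to 108), but the groups overlapped within both subtypes, at 67.5 to 163 against 62.0 to 119 in alveolar and 28.9 to 51.1 against 18.4 to 41.2 in interstitial macrophage-like cells. T and NK-like cells held 26.0 to 42.1 CXCL3 UMIs per 100 CXCL8 UMIs in the controls and 9.09 to 12.5 in asthma, from 33 to 84 CXCL8 UMIs per library. After thinning, 0.0454% to 0.504% of T and NK-like cells and at most 0.310% of B-like cells had a CXCL3 UMI, against 6.75% to 25.1% of macrophage-like cells.

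**Figure D2:**
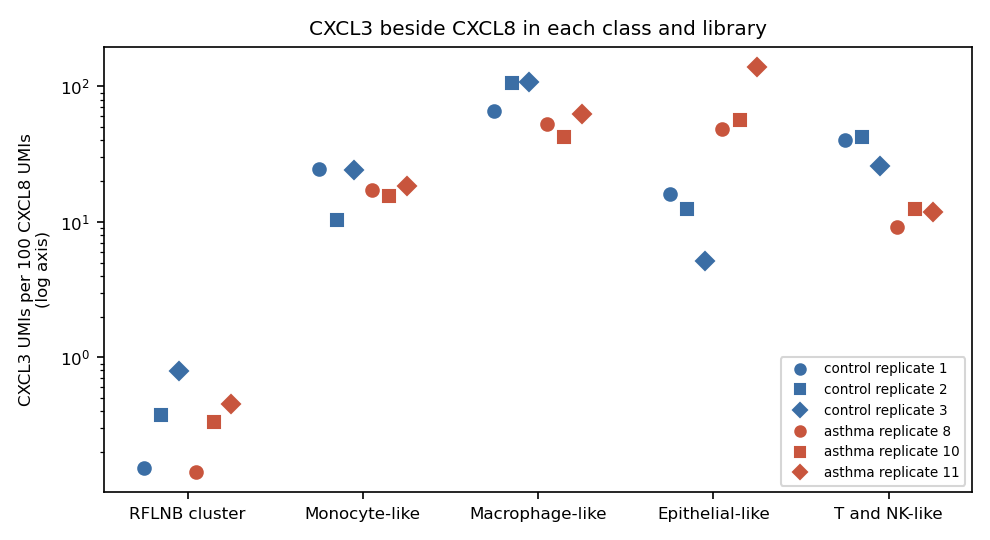
CXCL3 UMIs per 100 CXCL8 UMIs (log axis) in 5 cell classes, 1 point per library. The RFLNB cluster lies below 0.8 in all 6 libraries, and in macrophage-like cells the asthma libraries (42.5 to 62.7) lie below the controls (65.5 to 108), which was not so within its subtypes.

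CXCR1 (ENSMFAG00000000757), a receptor for CXCL8, was highest in the RFLNB cluster. It held 359, 535 and 507 CPM there in the controls and 439, 371 and 368 CPM in asthma, while no library of any other named class exceeded 5.91 CPM. In all, 1022 UMIs were found in 814 cells, with no more than 4 in a cell, and 48.4% to 83.1% of each library's CXCR1 UMIs came from the cluster, with 10.2% to 25.3% from cells that received no class. After thinning, 29.1%, 39.4% and 43.2% of its cells with at least 1000 UMIs had a CXCR1 UMI in the controls and 32.5%, 26.5% and 32.5% in asthma. In T and NK-like cells at most 0.177% had one, and in B-like cells 0 of 872, which allows a share of up to 0.344%. The groups overlapped, with a difference of -6.70 percentage points (exact permutation p = 0.3).

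CSF3R (ENSMFAG00000032558), the G-CSF receptor, followed the same cells with a longer tail. In the RFLNB cluster it held 3332, 2971 and 2634 CPM in the controls and 2688, 1872 and 3961 CPM in asthma. After thinning, 97.3%, 89.0% and 86.3% of its cells with at least 1000 UMIs in the controls and 90.0%, 79.6% and 96.9% in asthma had a CSF3R UMI. The background in T and NK-like cells was 0.497% to 1.63%. Monocyte-like cells held 57.1 to 148 CPM and macrophage-like cells 21.0 to 88.3 CPM, and the highest value of any lower class was 23.9 CPM, in plasma-like cells. Of RFLNB cluster cells with at least 1000 UMIs, 88.4% to 100% had a UMI of CSF3R or CXCR1, and 12.8% to 38.5% had UMIs of CSF3R, CXCR1 and CXCL8 together, so that CXCL8 and its receptor CXCR1 were found in the same barcodes. The share with CXCL8 among cells with a CSF3R UMI was 45.1% to 69.6%.

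CSF3 (ENSMFAG00000001645), the gene of G-CSF, had 10 UMIs in 10 of 24235 cells, too few for a test of summed UMIs. Capillary EC-like cells, with markers of capillary endothelium, gave 4 of them (1 in asthma replicate 8 and 3 in asthma replicate 11). After thinning, stromal-like cells, which held 4 of the 10 CSF3 UMIs, had means of 0.0% with a CSF3 UMI in the controls and 0.0596% in asthma (exact permutation p = 0.4). Basal-like cells of control replicate 3 gave 2, macrophage-like cells 2, and dendritic-like and MC-like cells 1 each. MC-like cells are those with mesothelial markers such as MSLN and UPK3B. In the RFLNB cluster 0 of 1632 cells had a CSF3 UMI, which allows a share of up to 0.184%, and in T and NK-like cells 0 of 10148, which allows up to 0.0296%.

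CSF2 (ENSMFAG00000024344), the gene of GM-CSF, had 359 UMIs in 168 cells, most of them epithelial-like. AT2-like cells, which carry markers of the surfactant-producing alveolar type 2 cells, held 109, 15.3 and 26.9 CPM in the controls and 56.9, 28.9 and 51.6 CPM in asthma. Control replicate 1 was highest, with 116 UMIs in 53 of 88 AT2-like cells, whereas control replicates 2 and 3 rest on 3 UMIs each, and the groups overlapped. Club-like cells gave CSF2 in 3 libraries (21, 9 and 3 UMIs). CD4 T-like cells held 2.51, 4.71 and 4.99 CPM in the controls and 29.7, 0.485 and 4.63 CPM in asthma, where the value of asthma replicate 8 came from 35 UMIs in 5 of 271 cells. No CSF2 UMI was found in 1632 RFLNB cluster, 2307 stromal-like, 872 B-like or 537 dendritic-like cells, which allows shares of up to 0.184%, 0.130%, 0.344% and 0.559%. After thinning, the share of epithelial-like cells with a CSF2 UMI was 7.32%, 0.475% and 0.364% in the controls and 1.19%, 1.63% and 2.55% in asthma (exact permutation p = 1.0), and in T and NK-like cells it was at most 0.120%.

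Asthma and control libraries were then compared within classes by summing UMIs per library and class, with edgeR's quasi-likelihood test, p-values adjusted by Benjamini-Hochberg over all genes tested in the class. A call needed this adjusted p to be below 0.05 and the log2 fold change to exceed 0.25 in size. Fold changes are asthma against control. Over 7 classes, 18 pairs of a member and a class could be tested, and 16 of the 18 fold changes were negative. No pair was called by edgeR, 5 had an unadjusted p under 0.05, and DESeq2 called 1, where over all genes of these classes 8.16% had an unadjusted p under 0.05 by edgeR and 1.07% were called by DESeq2. Over 9 subtypes, 15 of 18 fold changes were negative, edgeR called 1, 8 had an unadjusted p under 0.05, and DESeq2 called 4, where over all genes 5.26% had an unadjusted p under 0.05 by edgeR and 0.0999% were called by DESeq2. These pairs share libraries and, between classes and subtypes, cells. They include CXCL3 in T and NK-like cells, which passed the filter on low counts through the controls alone.

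The member that passed was CXCL8 in basal-like cells, the KRT5- and KRT15-positive progenitors of the airway epithelium. It held 1710.4 CPM in control replicate 1 and 1498 CPM in control replicate 3, against 319, 224 and 231 CPM in asthma replicates 8, 10 and 11. Every asthma library was below both control libraries. These values are sums over 10 and 91 cells of the controls (148 and 1341 UMIs) and over 11, 23 and 15 cells of the asthma libraries (39, 46 and 33 UMIs). Control replicate 2, with 1 CXCL8 UMI in 3 basal-like cells (32.0 CPM), did not enter the test. CXCL8 fell by 2.64 ± 0.25 (SE) on the log2 scale with an adjusted p of 0.000531, from a mean of 1604 ± 150 CPM (SD, n = 2) to 258 ± 52.8 CPM (n = 3). It was the only gene called in these cells, or 0.04% of the 2503 tested, with 137 at an unadjusted p under 0.05 and 8 called by DESeq2, and 10.0% of these had every asthma library below every control library. After thinning, 45.8% and 45.5% of basal-like cells in the controls and 9.96%, 11.04% and 13.2% in asthma had a CXCL8 UMI. Without asthma replicate 10 the adjusted p was 0.0651 at a log2 fold change of -2.55. Leaving out control replicate 1 or 3, with the lone control library then assumed to vary like the asthma ones, gave an adjusted p of at most 0.000207. CXCL3 was too low there for a test, at 23.1 and 63.7 CPM in the controls and 164, 34.1 and 63.1 CPM in asthma.

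Immediate-early genes such as FOS, EGR1 and ATF3, which respond quickly to stimulation and to dissociation, had lower sums in the same asthma libraries. In basal-like cells 24 of them summed to 24986 and 21383 CPM in the controls and 11467, 13886 and 8719.7 CPM in asthma, and 16 of 17 tested were negative, with a median log2 fold change of -0.81 beside 0.01 over all genes. Their part in the CXCL8 result was not tested. In epithelial-like cells as a whole CXCL8 had a log2 fold change of -3.04 ± 0.88 (adjusted p = 0.668), from 141, 89.1 and 1035 CPM to 53.5, 79.9 and 22.6 CPM, where 91 of 128 cells of control replicate 3 were basal-like. Without that library the value was -1.42. edgeR called 0.0% of 8773 genes in this class, with 637 at an unadjusted p under 0.05 and 2 by DESeq2. CXCL3 had a log2 fold change of 0.03 ± 0.43 there (adjusted p = 0.999). Per 100 CXCL8 UMIs, epithelial-like cells held 5.14 to 16.2 CXCL3 UMIs in the controls and 48.5 to 138 in asthma. Control replicate 2 rests on 3 CXCL3 and 24 CXCL8 UMIs there, and asthma replicate 11 on 54 and 39. The make-up of the class differed as well. AT1-like cells, with markers of alveolar type 1 cells, numbered 16, 4 and 3 in the controls and 95, 30 and 59 in asthma. The part of this in the ratio was not tested.

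**Figure D3:**
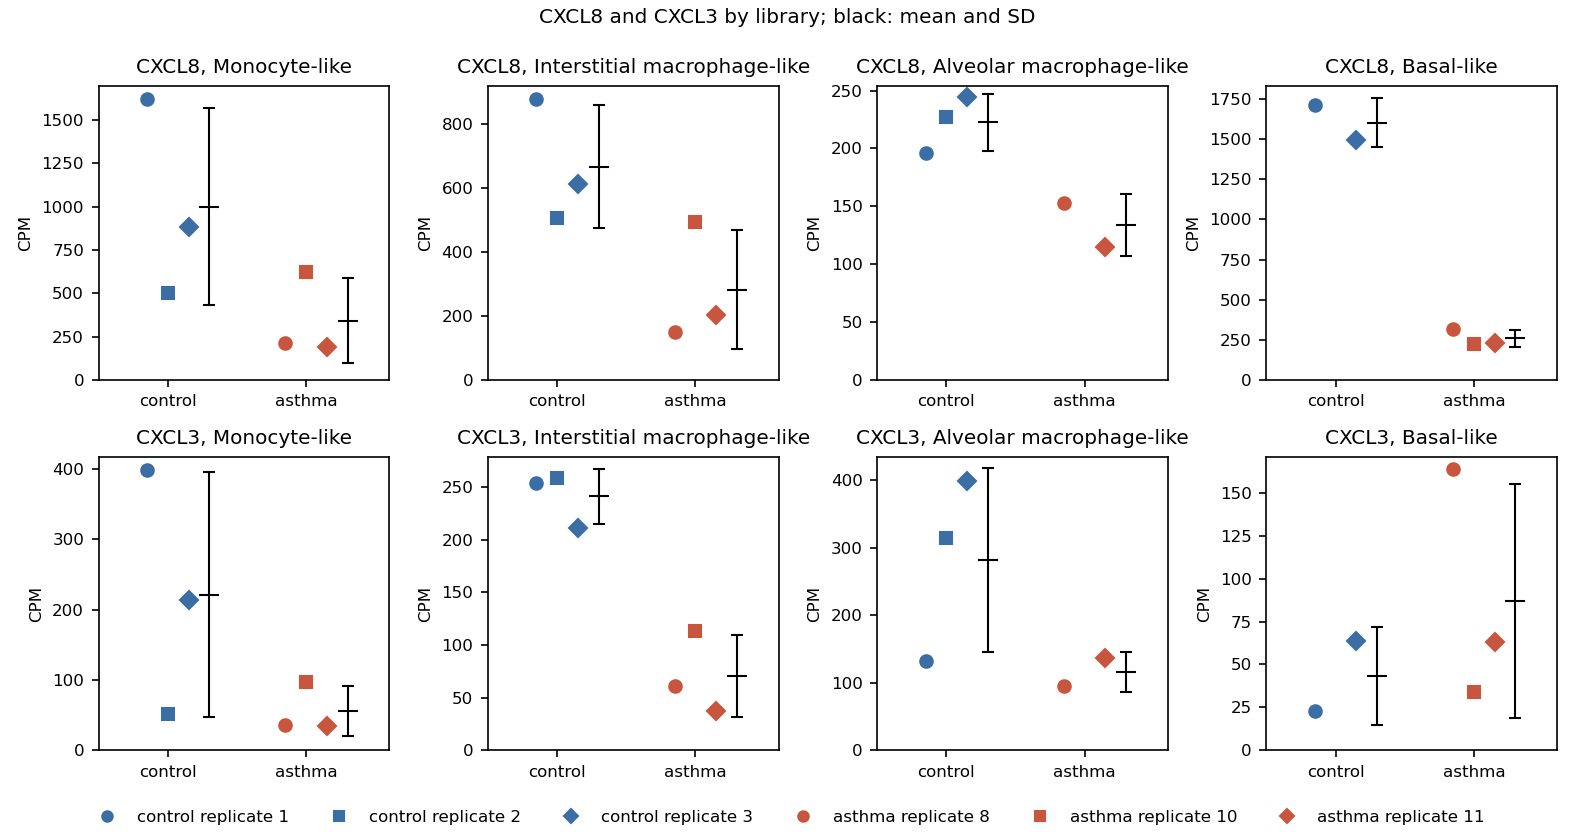
CXCL8 (upper row) and CXCL3 (lower row) in CPM by library in monocyte-like, interstitial macrophage-like, alveolar macrophage-like and basal-like cells, with the mean and SD of each group in black. Libraries with fewer than 10 cells are left out, and the groups overlap for CXCL8 in monocyte-like cells only and for CXCL3 in all but interstitial macrophage-like cells.

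In macrophage-like cells every asthma library was below every control library for CXCL3, as were 2.14% of the 10527 genes tested. Its mean was 381 ± 57.6 CPM in the controls and 150 ± 73.3 CPM in asthma (SD, n = 3 each), and the fold change was -1.43 ± 0.34 on the log2 scale, with an unadjusted p of 0.00379 and an adjusted p of 0.721 by edgeR. DESeq2 gave an adjusted p of 0.00794. With 1 library left out the fold change ran from -1.95 to -1.18. edgeR called 0.0% of the genes of this class, with 588 at an unadjusted p under 0.05 and 38 by DESeq2. After thinning, 25.1%, 22.0% and 21.0% of the cells in the controls and 6.75%, 13.6% and 7.29% in asthma had a CXCL3 UMI. The groups did not overlap, with a difference of -13.5 percentage points and an exact permutation p of 0.1, the smallest that 6 libraries allow. CXCL8 and CSF3R overlapped between the groups in this class, with log2 fold changes of -0.60 ± 0.50 and -0.61 ± 0.55. With 1 library left out these ran from -1.37 to -0.20 and from -1.67 to -0.28, both lowest without asthma replicate 10. Of 23 immediate-early genes tested in this class 20 were negative, with a median of -0.29, and their sums overlapped between the groups, at 11860, 7526 and 10947 CPM in the controls and 8727, 12046 and 4336 CPM in asthma. Their part in the CXCL3 values was not tested.

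Of the 3448 macrophage-like cells, 934 were named alveolar and 1087 interstitial macrophage-like. These subtypes held 332 and 577 of the 7783 CXCL3 UMIs of the class in control replicate 1. In asthma replicate 10 interstitial macrophage-like cells held 618 of 3526. The subtypes thus do not account for the class values of these libraries. In every other library alveolar macrophage-like cells held most of the CXCL3 UMIs of the class. Interstitial macrophage-like cells, marked by FOLR2 and STAB1, held 254, 259 and 211 CPM of CXCL3 in the controls and 61.1, 114 and 37.4 CPM in asthma, a log2 fold change of -1.79 ± 0.35 (unadjusted p = 0.000435, adjusted p = 0.570 by edgeR, 4.75e-05 by DESeq2). CXCL8 was 879, 507 and 612 CPM in the controls and 148, 494 and 203 CPM in asthma, at -1.28 ± 0.40 (adjusted p = 0.865). Neither gene's groups overlapped, which was so in this direction for 2.97% of genes, although asthma replicate 10 came close to the controls for CXCL8. Of 7924 genes 0.0126% were called. With 1 library left out CXCL3 ran from -2.40 to -1.47, the former without asthma replicate 10, where it passed the test (adjusted p = 0.0475). No share over all genes is given for that fit, so the call is not read as a result about the member. The largest sub-cluster of these cells, led by CCL17 and STAB1, held CXCL3 at 255, 264 and 211 CPM in the controls and 61.9, 114 and 39.7 CPM in asthma. It comprised 1021 of the 1087 cells, so its values largely repeat those of the subtype, and no test is given for it. In interstitial macrophage-like cells 21 of 22 immediate-early genes had negative fold changes, with a median of -0.64, and their summed level was 19254, 11595 and 15948 CPM in the controls and 10582, 12609 and 6939.7 CPM in asthma. These sums overlapped between the groups, and their part in the CXCL3 and CXCL8 values was not tested.

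Alveolar macrophage-like cells, marked by FABP4 and MARCO, were compared over 3 control and 2 asthma libraries, since asthma replicate 10 had 6 such cells. CSF3R was 77.3, 45.1 and 90.5 CPM in the controls and 14.3 and 9.72 CPM in asthma replicates 8 and 11, at -2.69 ± 0.33 (unadjusted p = 9.39e-05, adjusted p = 0.295 by edgeR, 7.25e-10 by DESeq2). CXCL8 was 196, 227 and 244 CPM in the controls and 153 and 115 CPM in asthma, at -0.89 ± 0.19 (adjusted p = 0.903 by edgeR, 0.00959 by DESeq2). For both genes the groups did not overlap, as was so in this direction for 3.61% of genes, whereas for CXCL3, at 132, 314 and 399 CPM against 94.7 and 136 CPM, they did. edgeR called 0.0% of 9439 genes, with 448 at an unadjusted p under 0.05 and 22 by DESeq2. Of 22 immediate-early genes 19 were negative, with a median of -0.35, but their sums overlapped between the groups, at 5558, 6218 and 9035 CPM in the controls and 8073 and 2994 CPM in asthma, and their part in these values was not tested. In interstitial macrophage-like cells CSF3R had the opposite sign, at 0.34 ± 0.29. The difference between the subtypes was not tested.

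**Figure D4:**
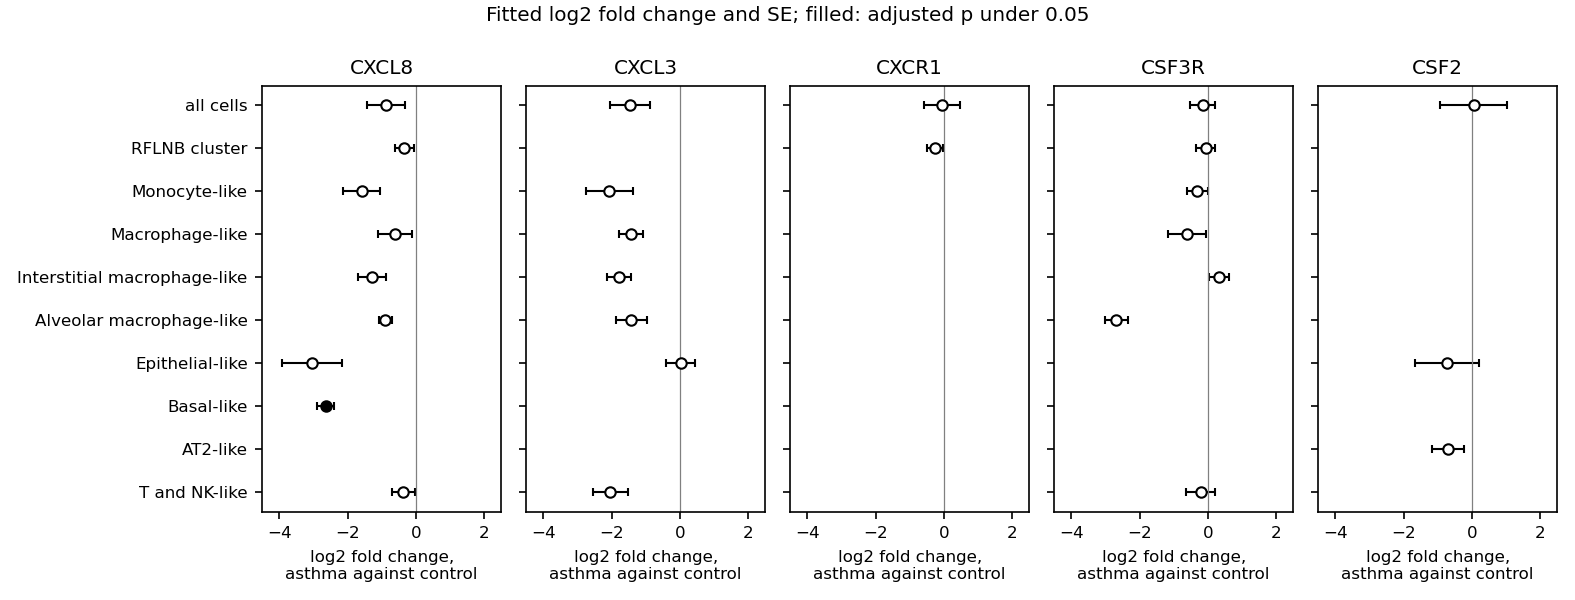
Log2 fold change, asthma against control, with its SE for each gene and cell group that could be tested, on summed UMIs with edgeR. The filled point, CXCL8 in basal-like cells, is the only one with an adjusted p under 0.05.

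In monocyte-like cells CXCL8 had a log2 fold change of -1.59 ± 0.54 and CXCL3 of -2.07 ± 0.69, both with an adjusted p of 0.9998, and the groups overlapped for both. Most of asthma replicate 11 lay in its own sub-cluster here, at 156 CPM of CXCL8. In the sub-cluster that the other 5 libraries filled, led by CXCL3, CXCL8 and EREG, CXCL8 was 2184, 706 and 979 CPM in the controls and 253, 865 and 679 CPM in asthma, where asthma replicate 11 rests on 18 cells. edgeR called 0.0134% of 7454 genes in monocyte-like cells. In T and NK-like cells CXCL3 was 4.97, 3.31 and 2.38 CPM in the controls and 0.430, 1.19 and 1.048 CPM in asthma, at -2.03 ± 0.52 (adjusted p = 0.388). It had 34, 24 and 19 UMIs in the controls but 3, 8 and 4 in asthma. It passed the filter on low counts through the controls alone, so its fold change is not read as a result about asthma. Every asthma library was below every control library, as were 4.61% of genes, and edgeR called 0.0% of 10449 genes, with 718 at an unadjusted p under 0.05 and 78 by DESeq2. These values rest on 3 to 34 UMIs per library. T and NK-like cells themselves served as a background for free RNA, so they cannot be judged against it. In B-like cells, the other background, CXCL3 reached at most 2.64 CPM. The part of free RNA was not tested.

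In the RFLNB cluster no member passed the test. CXCL8 had a log2 fold change of -0.33 ± 0.28, CXCR1 of -0.26 ± 0.24 and CSF3R of -0.06 ± 0.28, each with an adjusted p of 0.999 in edgeR's test. edgeR and DESeq2 called 0.0% of 2991 genes there, with 103 at an unadjusted p under 0.05. In AT2-like cells, where 0.0162% of 6191 genes were called, CSF2 stood at -0.70 ± 0.47 (adjusted p = 0.873), a value that turned to 1.23 without control replicate 1. In sums of all cells CXCL8 was 478, 218 and 249 CPM in the controls and 117, 342 and 112 CPM in asthma, and CXCL3 was 259.6, 124 and 118 CPM against 41.9, 122 and 37.2 CPM. Asthma replicate 10 lay among the controls for both genes. The fold changes were -0.87 ± 0.56 (adjusted p = 0.568) and -1.46 ± 0.59 (adjusted p = 0.371), and those of CXCR1, CSF3R and CSF2 lay between -0.15 and 0.05, where 0.0839% of 14306 genes were called. Without asthma replicate 10 CXCL8 stood at -1.66 and CXCL3 at -2.29, and without control replicate 1 at -0.37 and -0.93. In such sums fewer cells of a type and less RNA per cell cannot be told apart.

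Other genes of the pathway were given from fixed lists. Of 6 further ELR chemokines and receptors, 5 had a row, and none was called in any class or subtype. CXCL1, a ligand of CXCR2, was 26.0, 14.5 and 12.5 CPM in monocyte-like cells of the controls and 3.06, 2.71 and 5.73 CPM in asthma, at -2.01 ± 0.44 (unadjusted p = 0.00128, adjusted p = 0.9998), with no overlap, as for 3.72% of genes. These values rest on 44, 41 and 19 UMIs in the controls and 3, 2 and 17 in asthma. CXCL1 passed the filter on low counts in these cells through the controls alone. Its level was higher in the RFLNB cluster, at 225, 82.3 and 99.2 CPM in the controls and 148, 54.4 and 162 CPM in asthma. In macrophage-like cells CXCL1 had a log2 fold change of -1.45 ± 0.35 and in basal-like cells of -1.996 ± 0.67, neither of which passed (adjusted p = 0.721 and 0.643). In stromal-like cells CXCL1 had the opposite sign, at 2.07 ± 0.69 (adjusted p = 0.162), and passed that filter through the asthma libraries alone. Stromal-like cells were of different make-up in the groups, since capillary EC-like cells were 12 of 148, 13 of 126 and 11 of 379 of them in the controls and 187 of 373, 193 of 339 and 288 of 942 in asthma, and the part of this in the values of the class was not tested. ACKR1, a scavenging receptor for these chemokines on venous endothelium, stood at 1.45 ± 0.53 there (adjusted p = 0.189). CXCL6, another ELR ligand, reached 127 CPM in epithelial-like cells of control replicate 3 and 36.2 CPM in those of asthma replicate 8, with no more than 5.53 CPM in the others. In the RFLNB cluster it held 60.9, 9.68 and 11.02 CPM in the controls and 62.7, 28.1 and 18.0 CPM in asthma, from 1 to 17 UMIs per library, which was above the epithelial-like value in 5 of 6 libraries. CXCL2 and PPBP, also ELR ligands, were at most 1.16 and 1.30 CPM in sums of all cells.

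Of 8 other colony-stimulating factors and receptors 6 had a row. CSF1R, the M-CSF receptor of monocytes and macrophages, had 1.38, 1.24 and 2.099 CPM in stromal-like cells of the controls and 9.08, 8.78 and 8.96 CPM in those of asthma, from 1 to 28 UMIs per library. It rose there by 2.095 ± 0.43 on the log2 scale (adjusted p = 0.0498), a class in which 2.0% of 9536 genes were called. CSF1R passed the filter on low counts there through the asthma libraries alone, where it was higher. The call was lost with any 1 library left out (log2 fold change 2.004 to 2.428, adjusted p = 0.0706 to 0.211) and with DESeq2 (adjusted p = 0.113). One sub-cluster of the stromal-like cluster, left out of this class, was rich in CSF1R. It held 232, 35.0 and 171 CPM in 6, 5 and 11 cells of the controls. In asthma it held 375, 752 and 458 CPM in 8, 24 and 50 cells. The part of such cells or of free RNA in the CSF1R values of the class was not tested. Capillary EC-like cells, which were mostly of asthma libraries, gave 0 of the CSF1R UMIs in the controls and 2, 8 and 9 in asthma. Fib-like cells, present in all libraries, held 0.0, 1.73 and 4.32 CPM in the controls and 12.96, 5.44 and 8.20 CPM in asthma. These came from at most 10 UMIs per library. They did not overlap between the groups, as in this direction for 821 of 6601 genes. Nor did the values of the class, as for 2598 of 9536 genes. In Fib-like cells of a CCL11-led sub-cluster CSF1R was 0.0 CPM in every control and 0.0, 4.08 and 8.21 CPM in asthma. In the other sub-cluster it was 0.0, 2.65 and 5.49 CPM against 41.4, 8.18 and 0.0 CPM, the last from 1 cell. No other gene of this list was called in any class or subtype. CSF2RB, the shared signalling chain of the receptors for GM-CSF, IL-3 and IL-5, was highest in the RFLNB cluster, at 737, 953 and 573 CPM in the controls and 800.3, 763 and 1279.8 CPM in asthma, a log2 fold change of 0.31 ± 0.29. In macrophage-like cells CSF1, the gene of M-CSF, stood at -0.71 ± 0.29 (adjusted p = 0.876). KIT and its ligand gene KITLG stood at 1.75 ± 0.53 and 0.69 ± 0.44 in sums of all cells (adjusted p = 0.277 and 0.568). KIT is a marker of mast cells, and mast-like cells numbered 4, 7 and 6 in the controls and 56, 24 and 12 in asthma. IL5RA, the specific chain of the IL-5 receptor, had at most 7 UMIs in a library. Of 25 inducers and feedback genes of NF-kB, 23 could be tested in macrophage-like cells, where none was called and their median log2 fold change was 0.15 beside 0.00 over all genes. In monocyte-like cells 16 of 21 were negative, with a median of -0.23, and in epithelial-like cells 13 of 15, with a median of -0.42, again with no call. NFKBIZ, a co-activator of NF-kB target genes, held 47.0, 43.4 and 57.2 CPM in Fib-like cells of the controls, which carry fibroblast markers, and 154, 171 and 171 CPM in those of asthma. It rose by 1.598 ± 0.21 on the log2 scale (adjusted p = 0.0148), a subtype in which 0.424% of 6601 genes were called. The call was lost without control replicate 1 (adjusted p = 0.0618) or control replicate 3 (adjusted p = 0.0965). Its log2 fold change ran from 1.52 to 1.71 with 1 library left out. The groups also lay mostly in different sub-clusters of these cells. One led by RBP4 and PCOLCE2 held 29 of 43, 50 of 79 and 127 of 165 cells in the controls but 22 of 78, 18 of 60 and 1 of 235 in asthma, while the rest belonged to one led by CCL11. Within the CCL11-led sub-cluster NFKBIZ was 97.1, 70.2 and 141 CPM in the controls and 195, 232 and 171 CPM in asthma, again with no overlap. Over all Fib-like cells 821 of 6601 genes had every asthma library above every control library. Within the other sub-cluster NFKBIZ was 27.3, 29.2 and 34.3 CPM in the controls and 64.4 and 49.1 CPM in asthma replicates 8 and 10. In Fib-like cells 9 of 11 genes of the NF-kB list were positive, with a median of 0.57, as were 13 of 17 immediate-early genes, with a median of 0.36, beside 0.01 over all genes. Their part in the NFKBIZ result was not tested. SOD2, NFKBIA and PTGS2 were the highest of this list in the RFLNB cluster. SOD2, a mitochondrial superoxide dismutase, held 16665 to 23969.8 CPM there. Of 24 genes of the neutrophil list 18 could be tested in the RFLNB cluster, of which 12 were negative and 6 positive, with a median of -0.13 and no call.

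Likeness of pattern was measured as Pearson's r of log2(CPM + 10) over 62 sums of 1 class in 1 library, among 5354 genes. The points share libraries and depth, and no p is given. CXCL8 was most like S100A9, SOD2 and SIRPB2 (r = 0.88 each), and CXCL3 was most like LTA4H (0.88), CD163 (0.85) and C1QB (0.83). CXCR1 was most like TEKT2 (0.98), PHOSPHO1 (0.98) and MMP9 (0.97), and CSF3R most like G0S2, OSM and MEFV (0.96, 0.96 and 0.95). CSF2 was most like PGC, CLDN18 and NAPSA (0.90, 0.87 and 0.87), genes of alveolar epithelium. CSF3, with its 10 UMIs, reached no more than 0.57, with ALDH3A1.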

How the data were processed

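The authors processed the reads with Cell Ranger (version 2.1.1 per the labels, other versions in the methods and the file headers) against macFas6 and deposited, for each library, a matrix of UMI counts that were not normalized. A barcode was kept if it had over 500 but under 5000 genes and no more than 25% mitochondrial UMIs. The 7 members were left out of 2000 variable genes, and cells were clustered on 10 components with the Leiden algorithm (resolution 0.8) (scanpy 1.11.5, leidenalg 0.10.2, Python 3.11.15) and named from marker lists. Doublets were kept, but a sub-cluster was dropped from its class where another class's markers prevailed. UMI counts were summed per library and class (at least 10 cells) and tested with edgeR 4.0.16 (R 4.3.3, TMM, filterByExpr). The test was also checked on simulated data, and no result given here draws on that check. Each library came from 1 monkey, so that p-values rest on the spread between 2 or 3 monkeys a group. Intervals and limits on shares cover counting error only.

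The genes named are the members, every gene of the first 2 lists, called genes of the other lists or their 3 highest, and the 3 most similar genes by r, except for a gene that is not reported here. The members and lists were chosen with earlier results of these data known. The alternatives allowed at most 10% mitochondrial UMIs, or cells from 200 genes upward, and further used no doublets, no filter on low counts, DESeq2 1.42.0, total UMIs in place of TMM, a resolution of 1.6, members among the variable genes, a Wilcoxon test across cells, other thinning depths and each library left out.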

Additional observations from a re-analysis of the deposited data

How the results depend on the processing

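In classes, edgeR's test called 0 members, as it did in sums of all cells, and 0 again with each library left out. With no filter on low counts it called 2 of 48 in classes and 8 of 63 in subtypes, beside 0.773% and 0.744% of all genes tested there (0.345% and 0.00892% with the filter), and DESeq2 1 and 4, where edgeR had called 1 in subtypes. A Wilcoxon test across cells, which are not replicates, called 5 in classes. No share over all genes is given for it, so this number is not read as a result about the members. With a mitochondrial maximum of 10% the count in subtypes was 0, because fewer than 2 control libraries kept enough basal-like cells for a test. With each library left out it was 1 to 2, and the fall of CXCL8 in basal-like cells was not called without asthma replicate 10. Without that library CXCL3 in interstitial macrophage-like cells passed (log2 fold change -2.40, adjusted p = 0.0475 in edgeR's test). No share over all genes is given for fits with a library left out. The counts from these fits and this call are therefore not read as results about the members. The difference in the share of RFLNB cluster cells ranged from -0.0866 to 4.55 percentage points, turning negative without control replicate 3 (-0.0866) or asthma replicate 10 (-0.0523). For shares of cells with a UMI the range was -13.4 to 0.106 percentage points for CXCL8 (0.106 without control replicate 3), -6.04 to 2.59 for CSF3R (1.18 without control replicate 1, 2.59 without asthma replicate 10), -2.11 to 1.37 for CSF2 (1.37 without control replicate 1), -10.8 to -3.73 for CXCR1, -15.7 to -12.3 for CXCL3 and 0.0304 to 0.0894 for CSF3. Some log2 fold changes that were not called also turned. In sums of all cells CXCR1 was 0.10 and CSF3R 0.0022 with total UMIs alone, and CSF2 was -0.040 with at least 200 genes. With a library left out CXCR1 ranged from -0.34 to 0.80, CSF3R from -0.41 to 0.14 and CSF2 from -0.44 to 2.42 in all cells, CSF3R from -0.41 to 0.16 in the RFLNB cluster, and CSF2 from -1.42 to 2.66 in epithelial-like and from -1.05 to 1.23 in AT2-like cells, where it was -0.73 and -0.70 with all libraries. Others kept their sign but moved by over 1.5 times. In monocyte-like cells CXCL8 ran from -2.36 to -1.06, CXCL3 from -2.68 to -1.33 and CSF3R from -0.70 to -0.037, in the RFLNB cluster CXCL8 from -0.60 to -0.14 and CXCR1 from -0.45 to -0.091, in T and NK-like cells CXCL8 from -0.60 to -0.064, in interstitial macrophage-like cells CXCL8 from -2.001 to -0.974, and in epithelial-like cells CXCL8 from -3.56 to -1.42. The call of CSF1R in stromal-like cells was kept with total UMIs alone and with members among the variable genes, and lost in the other alternatives that tested it. The cause of the other changes was not tested. Of 340 values of single genes under alternatives, 299 kept their direction and side of the threshold. No paired analysis was possible because the groups share no replicate number. CSF3 and CSF2 rest on 10 and 359 UMIs in all, and the basal-like result on 10 to 91 cells per library.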
